A study of Mus musculus with 6 samples.

Results

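Chemokines and their receptors were examined in the hearts of mice with 2 levels of cardiac fatty acid synthase (FASN). The genes were chosen by name. Every gene of the array annotation whose symbol is Ccl, Cxcl, Ccr or Cxcr followed by a number was taken, which gave 44 of the 18193 genes with a probe set of their own: 17 Ccl ligands, 13 Cxcl ligands, 9 Ccr receptors and 5 Cxcr receptors. A gene with several probe sets was represented by its brightest one. The arrays fall into 3 groups of 2: a transgenic line with high cardiac FASN, a transgenic line with low cardiac FASN and age-matched B6 controls, all male and labelled as strain C57BL/6J. An alpha-MHC promoter restricts the transgene to heart muscle. Each FASN level comes from 1 line, and level and line cannot be told apart. The age is not given, and a tissue label that names a transgenic heart stands on the control arrays too, so the groups rest on the titles. Whether the arrays of a group stand for different animals is not stated, so p-values describe array-to-array spread only, and that spread may be technical.

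Chemokines are small secreted proteins that draw leukocytes through tissue along a gradient and bind receptors coupled to inhibitory G proteins. CC and CXC chemokines are named for the spacing of their first cysteines, and in the heart their sources include resident macrophages, fibroblasts and vessel cells. Inflammatory ligands such as Ccl2 recruit monocytes after injury, eotaxins such as Ccl11 recruit eosinophils, and constitutive ligands such as Cxcl12 hold cells in place and guide vessel growth.

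The results below turn on a small set of ligand genes. Ccl6, Ccl8, Ccl9, Ccl11 and Cxcl14 were lower in both transgenic lines, and the promoters of 4 of these 5 are shown for that reason. Each sequence is the RefSeq promoter window of GRCm38.p6, 250 bases before to 50 after the annotated start, on the gene's own strand. Capitals mark letters that match a searched motif on either strand, and 4 motifs were searched. The TATA motif was TATAAA. The kappaB motif was GGGNNNNNCC. The AP-1 motif was TGANTCA, and the C/EBP motif was TTNNGNAA. The Ccl9 window is chr11:83578587-83578886 (minus strand), that of Ccl6 is chr11:83593038-83593337 (minus strand), that of Ccl8 is chr11:82114935-82115234 (plus strand) and that of Cxcl14 is chr13:56296502-56296801 (minus strand).
Ccl9: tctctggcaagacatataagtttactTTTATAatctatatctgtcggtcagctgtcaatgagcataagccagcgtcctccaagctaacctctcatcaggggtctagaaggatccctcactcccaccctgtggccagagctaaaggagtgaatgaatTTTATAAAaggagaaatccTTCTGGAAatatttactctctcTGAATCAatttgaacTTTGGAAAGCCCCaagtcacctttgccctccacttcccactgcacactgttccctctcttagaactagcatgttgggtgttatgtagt
Ccl6: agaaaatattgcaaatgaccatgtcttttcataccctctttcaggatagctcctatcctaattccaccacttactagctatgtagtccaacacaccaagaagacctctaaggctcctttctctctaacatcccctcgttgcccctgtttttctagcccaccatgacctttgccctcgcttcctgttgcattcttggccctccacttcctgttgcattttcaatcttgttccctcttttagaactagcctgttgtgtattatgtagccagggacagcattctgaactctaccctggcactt
Ccl8: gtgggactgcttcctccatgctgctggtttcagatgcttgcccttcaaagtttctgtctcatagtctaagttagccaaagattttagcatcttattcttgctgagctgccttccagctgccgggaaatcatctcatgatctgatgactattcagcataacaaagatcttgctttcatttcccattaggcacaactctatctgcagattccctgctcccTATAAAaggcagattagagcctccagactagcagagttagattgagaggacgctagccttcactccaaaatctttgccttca
Cxcl14: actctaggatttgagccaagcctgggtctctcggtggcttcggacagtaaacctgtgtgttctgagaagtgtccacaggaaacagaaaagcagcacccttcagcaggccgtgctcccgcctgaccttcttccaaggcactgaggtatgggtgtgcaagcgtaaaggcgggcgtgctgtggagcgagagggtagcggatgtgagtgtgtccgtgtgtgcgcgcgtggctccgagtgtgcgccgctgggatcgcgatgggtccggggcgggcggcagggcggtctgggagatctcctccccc
The neighbouring genes Ccl9 and Ccl6 share gccctccacttcc, a run of 13 letters that is the longest common to their windows, against 9 letters shared by Ccl9 and Ccl8 and 7 by Ccl6 and Ccl8. The Ccl9 window holds a match to each of the 4 motifs, and its kappaB match overlaps a C/EBP match. Ccl8 has a TATA match at position -32, and none of the 4 motifs lies in the windows shown for Ccl6 and Cxcl14. Promoter windows were matched for 31 of the 44 genes, Ccl11 not among them. A kappaB match lies in 19 of these 31, a C/EBP match in 15, a TATA match in 9 and an AP-1 match in 6, against 50.8%, 40.7%, 13.6% and 7.81% of all 32851 windows of this length. A match is a description of letters and not a binding site.

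At the level of the family, 22 of the 44 genes were bright enough to be tested, 17 ligands and 5 receptors, and the other 22 were dim. A gene counted as dim when its mean log2(signal + 16) over the 6 arrays was below the median of all probe sets, which corresponds to a signal of 47.0 in the arbitrary units of the arrays. Each line was compared with control to ask which chemokine genes accompany its level of FASN. In the high line 5 tested genes were lower than in control and 1 was higher, in the low line 5 were lower and 3 higher, and between the lines 2 were lower and 1 higher in the high line (limma, adjusted p below 0.05). The share of tested members called was 27.3% in the high line, where 14.4% of all 22519 tested probe sets were called. It was 36.4% in the low line, where 24.3% of all were called, and 13.6% between the lines, where 18.6% of all were. By direction, lower calls made up 22.7% of tested members in either line, against 6.18% of all probe sets (high line) and 10.8% (low line). Higher calls made up 4.55% and 13.6% of members against 8.18% and 13.5% of all. Between the lines 4.55% of members were higher and 9.09% lower in the high line, against 9.69% and 8.87% of all. With 2 arrays a group, groups that do not overlap are common: this held for 10, 15 and 8 of the 22 tested members in the high line, the low line and between the lines, against 56.2%, 65.0% and 59.2% of tested probe sets. Among the 22 dim members it held for 10, 9 and 5, against 35.6%, 36.7% and 35.5% of dim probe sets. The median difference of the 22 tested genes was -0.116 (high line) and 0.0 (low line) on the log2 scale, and that of all tested probe sets was 0.037 and 0.018. The genes lower in both lines were Ccl6, Ccl8, Ccl9, Ccl11 and Cxcl14. The lines were set against the same 2 control arrays and are therefore not independent comparisons.

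**Figure D1:**
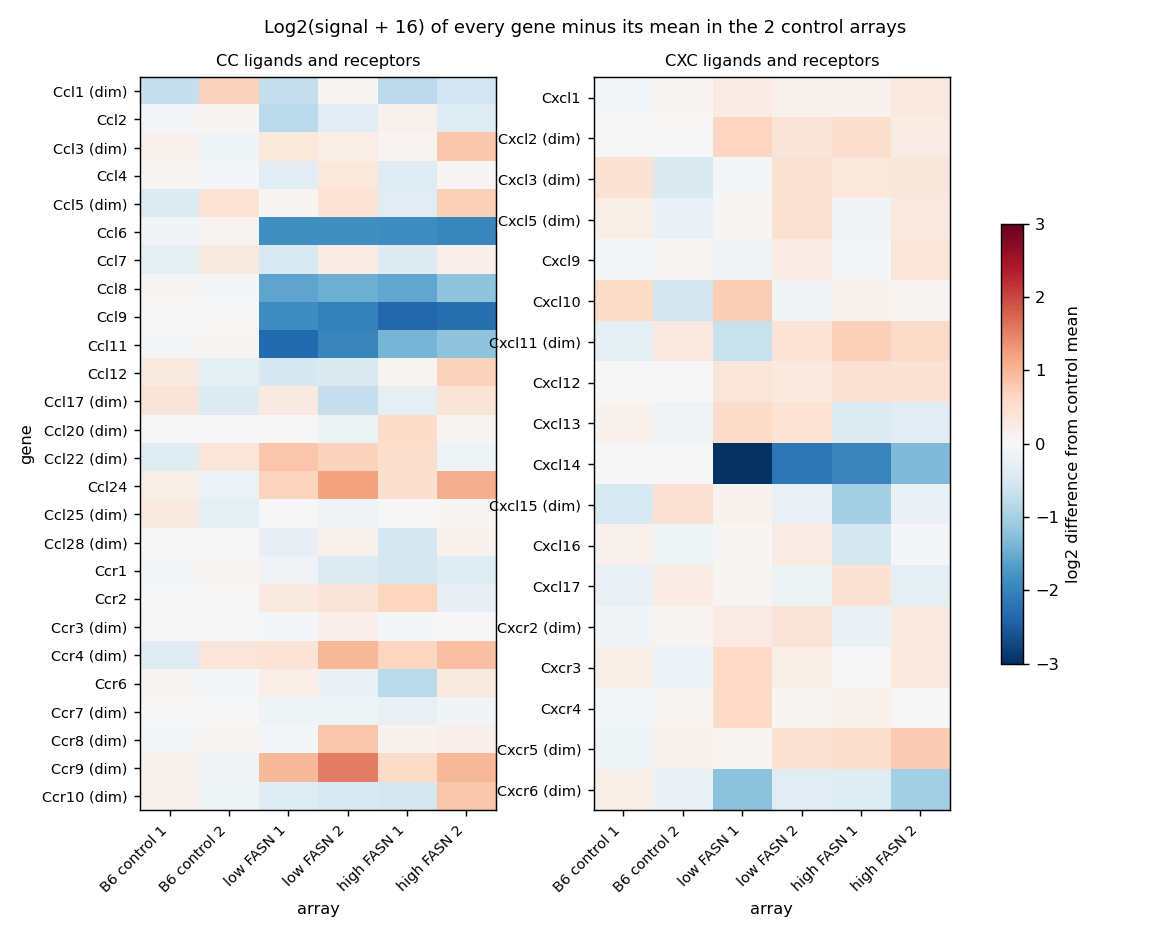
Colours give log2(signal + 16) of each of the 44 genes on each of the 6 arrays minus the gene's mean on the 2 control arrays, with CC genes on the left, CXC genes on the right and dim genes marked. Ccl6, Ccl8, Ccl9, Ccl11 and Cxcl14 are blue on all 4 transgenic arrays, while most other rows stay pale or vary between arrays of 1 group.

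Of the 5 genes lower in both lines 4 were CC ligands. Ccl9, a macrophage-derived ligand of the receptor Ccr1, read 2251.5 and 2281.0 on the control arrays, 433 and 457 on high-line arrays and 613 and 548 on low-line arrays. No transgenic array came near a control array, and the low line lay above the high line. Ccl9 was 4.95-fold lower in the high line (log2 difference -2.31 ± 0.0805 SE, n = 2 arrays a group, limma adjusted p = 2.55e-07) and 3.83-fold lower in the low line (-1.94, adjusted p = 8.5e-07). Its neighbour Ccl6, also a Ccr1 ligand of myeloid cells, read 2252.6 and 2544.3 in control, 649 and 608 on high-line arrays and 653 and 659 on low-line arrays. The 4 transgenic arrays of Ccl6 lay within 608 to 659, far below both controls. Ccl6 was 3.74-fold lower in the high line (-1.90 ± 0.0799 SE, limma adjusted p = 7.72e-07) and 3.59-fold lower in the low line (-1.84, adjusted p = 1.17e-06). In heart tissue as a whole, fewer cells of a type and less RNA per cell cannot be told apart.

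A second probe set of each gene gave the same picture. The dimmer Ccl9 probe set read 1097.1 and 1106.8 in control, 171 and 179 on high-line arrays and 271 on each array of the low line. The dimmer Ccl6 probe set read 1032.7 and 1028.7 in control, 267 and 251 on high-line arrays and 316 and 350.0 on low-line arrays. These probe sets differed from control by -2.55 and -1.93 on the log2 scale for the high and by -1.96 and -1.59 for the low line, each called. Ccl6 and Ccl9 are related in sequence, and how far their probe sets read each other's RNA was not tested.

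Ccl8, a monocyte chemoattractant protein, read 418 and 399.7 in control, 129 and 168 on high-line arrays and 127 and 139 on low-line arrays. The transgenic groups overlapped each other and both lay below control. Ccl8 was 2.60-fold lower in the high line (-1.38 ± 0.155 SE, limma adjusted p = 0.000502) and 2.86-fold lower in the low line (-1.52, adjusted p = 0.000162). Ccl11 (eotaxin-1), which attracts eosinophils through Ccr3 and is made by fibroblasts among other cells, read 505 and 544 in control, 188 and 218 on high-line arrays and 91.2 and 121 on low-line arrays. Its 3 groups did not overlap, and the low line was the lowest. Ccl11 fell 2.47-fold in the high line (-1.31 ± 0.156 SE, limma adjusted p = 0.00069) and 4.46-fold in the low line (-2.16, adjusted p = 2.17e-05).

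**Figure D2:**
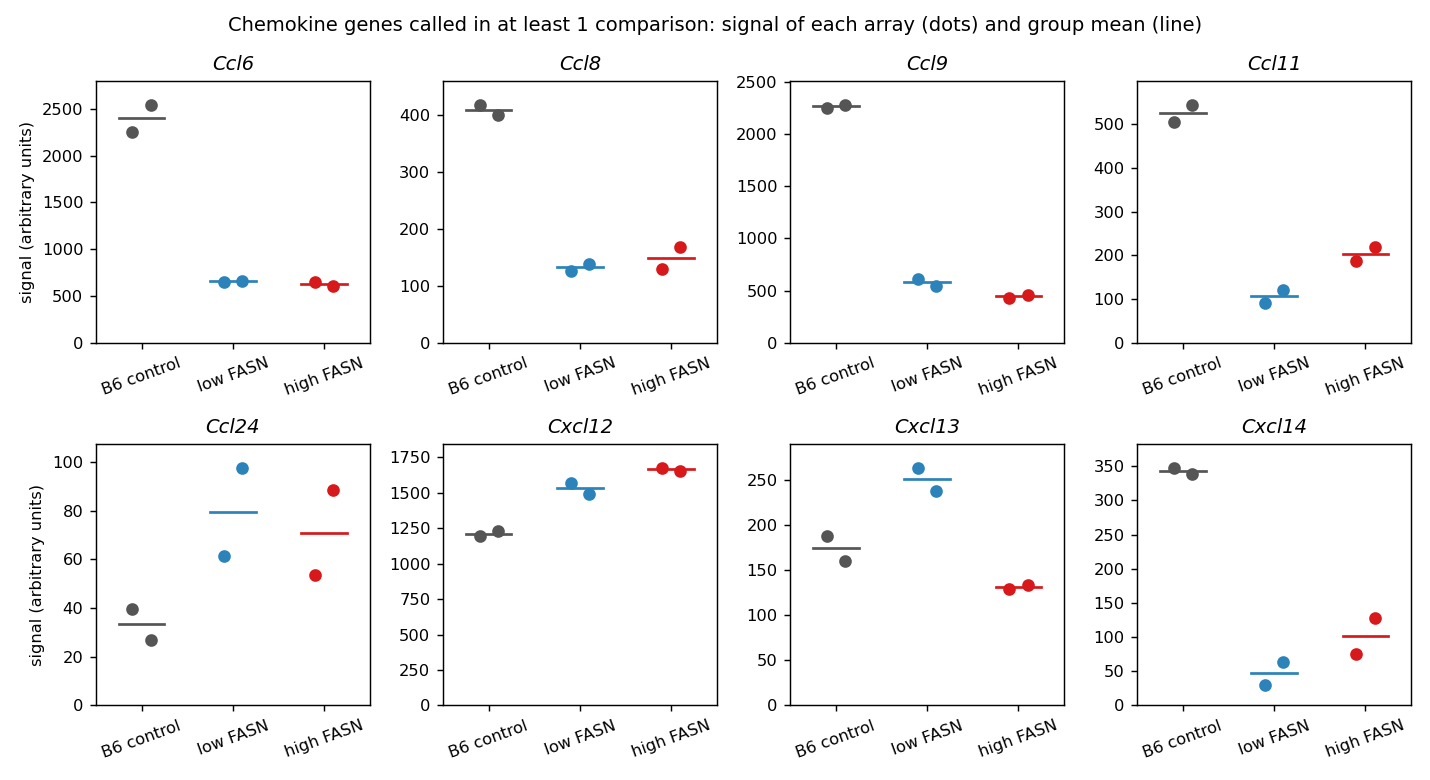
Each panel plots the signal in arbitrary units of 1 gene on each array (dots) with the group mean (line) for the 8 genes called in at least 1 comparison. Ccl6, Ccl8, Ccl9, Ccl11 and Cxcl14 stand highest in control, Cxcl12 stands lowest there, and Cxcl13 is highest in the low line.

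Called and uncalled genes stood side by side on chromosome 11. In the RefSeq gene order Ccl2, Ccl7, Ccl11, Ccl12, Ccl8 and Ccl1 are neighbours, and so are Ccl5, Ccl9, Ccl6, Ccl3 and Ccl4. In the first row Ccl11 and Ccl8 fell, and the monocyte attractants Ccl2, Ccl7 and Ccl12 between and beside them did not pass the test. Ccl2 read 117 and 77.8 on high-line arrays, 53.7 and 81.5 on low-line arrays and 100.2 and 110.2 in control. Its low-line arrays lay below both controls, but the difference of -0.56 did not pass (limma adjusted p = 0.141). Ccl7 read 80.8 and 126.5 on high-line arrays, 77.6 and 132 on low-line arrays and 90.5 and 137 in control, so all 3 groups overlapped. Ccl12 read 105 and 171 on high-line arrays, 66.9 and 69.2 on low-line arrays and 122 and 80.1 in control. Ccl12 was called neither against control nor between the lines (0.84, limma adjusted p = 0.0527).

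In the second row Ccl9 and Ccl6 fell between Ccl5 and Ccl3, which were dim, and Ccl4, an attractant of monocytes and T cells, was not called. It read 65.7 and 91.2 on high-line arrays, 67.8 and 114 on low-line arrays and 92.5 and 84.0 in control. Away from both rows, Ccl24 (eotaxin-2), another Ccr3 ligand, read 53.5 and 88.5 on high-line arrays, 61.4 and 97.7 on low-line arrays and 39.5 and 27.1 in control. All 4 transgenic arrays lay above control. Ccl24 was 1.92-fold higher in the low line (0.94 ± 0.301 SE, limma adjusted p = 0.0483), where the eotaxin gene Ccl11 was lower. Ccl24 is close to the brightness limit, and its call was lost in 10 of 16 alternative settings, each of the 4 that leave out a low-line or control array among them (adjusted p = 0.0625 to 0.289). In the high line its difference of 0.80 did not pass (adjusted p = 0.114).

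**Figure D3:**
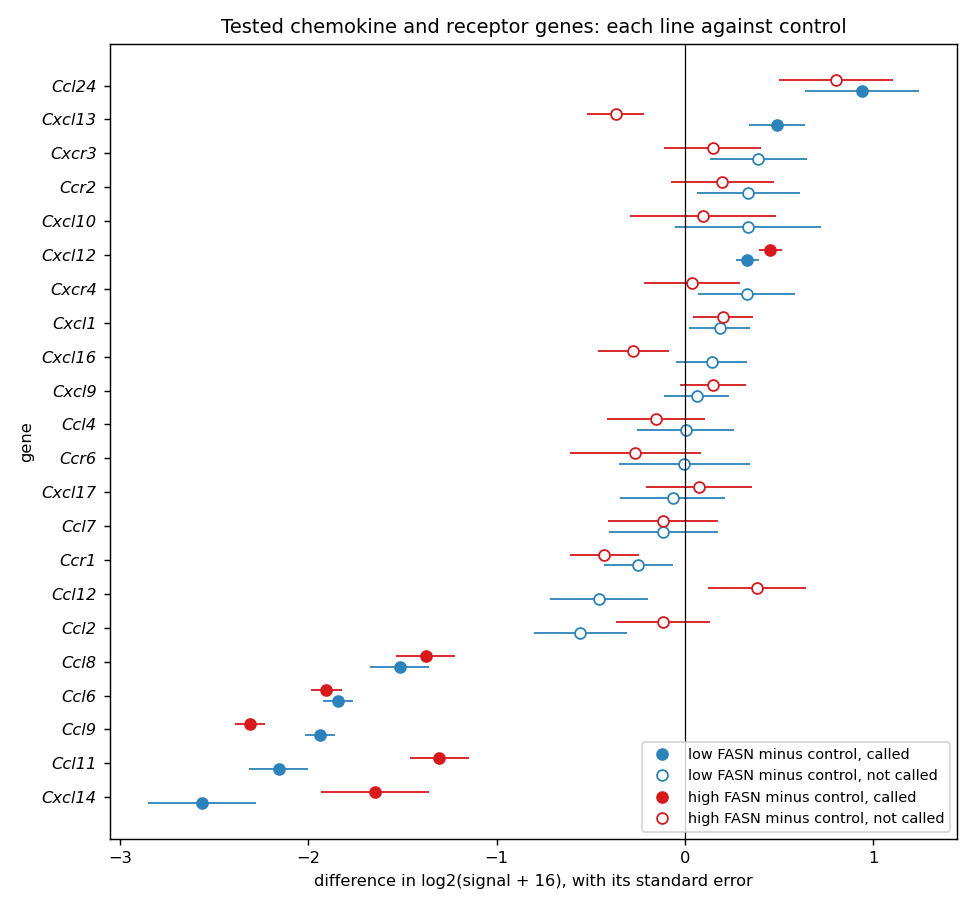
The difference in log2(signal + 16) from control, with its standard error, is plotted for each of the 22 tested genes in the low line (blue) and the high line (red), with filled points for called differences. Cxcl14, Ccl11, Ccl9, Ccl6 and Ccl8 lie at -1.31 or lower in both lines, and the differences of the other genes lie between -0.56 and 0.94.

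Among the CXC ligands Cxcl14 fell. Cxcl14, a constitutive chemokine of epithelia and stroma, read 348 and 339 in control, 75.8 and 128 on high-line arrays and 30.3 and 63.8 on low-line arrays. Control stood apart from all 4 transgenic arrays, and arrays of a line differed from each other by more than the control arrays did. It was 3.13-fold lower in the high line (-1.65 ± 0.287 SE, limma adjusted p = 0.00529) and 5.92-fold lower in the low line (-2.56, adjusted p = 0.000266). The size is uncertain, since 1 low-line array was below the brightness limit and a second probe set gave differences of -0.92 for the high and -1.38 for the low line. In the high line the call was lost with an untrended variance model (adjusted p = 0.0549).

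Cxcl12, the constitutive ligand of Cxcr4 that retains progenitor cells and guides vessels, rose. Its signal was 1678 and 1654 on high-line arrays, 1571 and 1490.5 on low-line arrays and 1193.5 and 1231 in control. All transgenic arrays lay above both controls with little spread within a group. The rise was 1.37-fold in the high line (0.45 ± 0.0626 SE, limma adjusted p = 0.0015) and 1.26-fold in the low line (0.33, adjusted p = 0.00447; adjusted p = 0.0539 without low-line array 1). A second Cxcl12 probe set read 863 and 853 on high-line arrays, 851 and 869 on low-line arrays and 697 and 737 in control, with differences of 0.26 in either line, both called. One more Cxcl12 probe set was dim.

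Cxcl13, the B cell attractant that signals through Cxcr5, parted the lines. It read 129 and 133 on high-line arrays, 264 and 238 on low-line arrays and 188 and 161 in control. The 3 groups did not overlap, with control between the lines. Against the low line Cxcl13 was 1.81-fold lower in the high line (-0.86 ± 0.150 SE, limma adjusted p = 0.00453; adjusted p = 0.0549 without low-line array 1). Its rise in the low line against control passed (0.49, adjusted p = 0.0401) and was lost in 9 of 17 alternatives, the dimmer probe set among them (0.41, adjusted p = 0.181). The high line's difference from control was -0.37 and did not pass (adjusted p = 0.138). Between the lines the dimmer probe set gave the same call (-0.95, adjusted p = 0.0112).

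Cxcl1, a neutrophil attractant acting on Cxcr2, depended on the probe set. The brightest one, whose name ends in x_at, the array maker's mark for probes that can match other transcripts, read 149 and 170.4 on high-line arrays, 164 and 149.5 on low-line arrays and 129 and 144 in control, and was called in no comparison. Its other probe sets, 2 in number, read highest in the low line. One read 223 and 214 on low-line arrays against 70.7 and 72.4 in control and 85.4 and 88.1 on high-line arrays. The other, whose name ends in s_at, read 237 and 238 on low-line arrays against 69.8 and 111 in control and 104 and 129 on high-line arrays. How far any Cxcl1 probe set reads other transcripts was not tested. The differences of this pair from control in the low line were 1.42 and 1.28 (limma adjusted p = 0.000395 and 0.00235). The high line differed from the low line by -1.19 and -0.94 (limma adjusted p = 0.00181 and 0.0147). Of 10 neutrophil markers on the arrays 5 were tested, and S100a8 and S100a9 differed from control by -1.08 and -1.13 in the low line and by -1.26 and -1.28 in the high line, each called lower. The count of 2 lower in the low line was 1 without low-line array 1 or without either control array. No tested neutrophil marker was called higher in the low line. Ngp and Mmp9 lay above control without a call, by 0.219 and 0.206 (low line) and by 0.267 and 0.346 (high line). The median difference of the 5 tested markers was -0.094 (low line) and 0.267 (high line). Ltf, which encodes lactoferrin and is also made by glandular epithelium, rose in the high line, where it read 134 and 135 against 22.1 and 33.6 in control and 25.1 and 24.4 on low-line arrays. The summed signal of all 10 neutrophil markers, Ltf and the dim ones included, was 459 to 473.5 in the high line, 366.5 to 420.3 in the low line and 465 to 549.6 in control. Of the tested ones 60.0% were called in the high and 40.0% in the low line, beside 14.4% and 24.3% of all tested probe sets. The part of these markers in the Cxcl1 values was not tested.

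**Figure D4:**
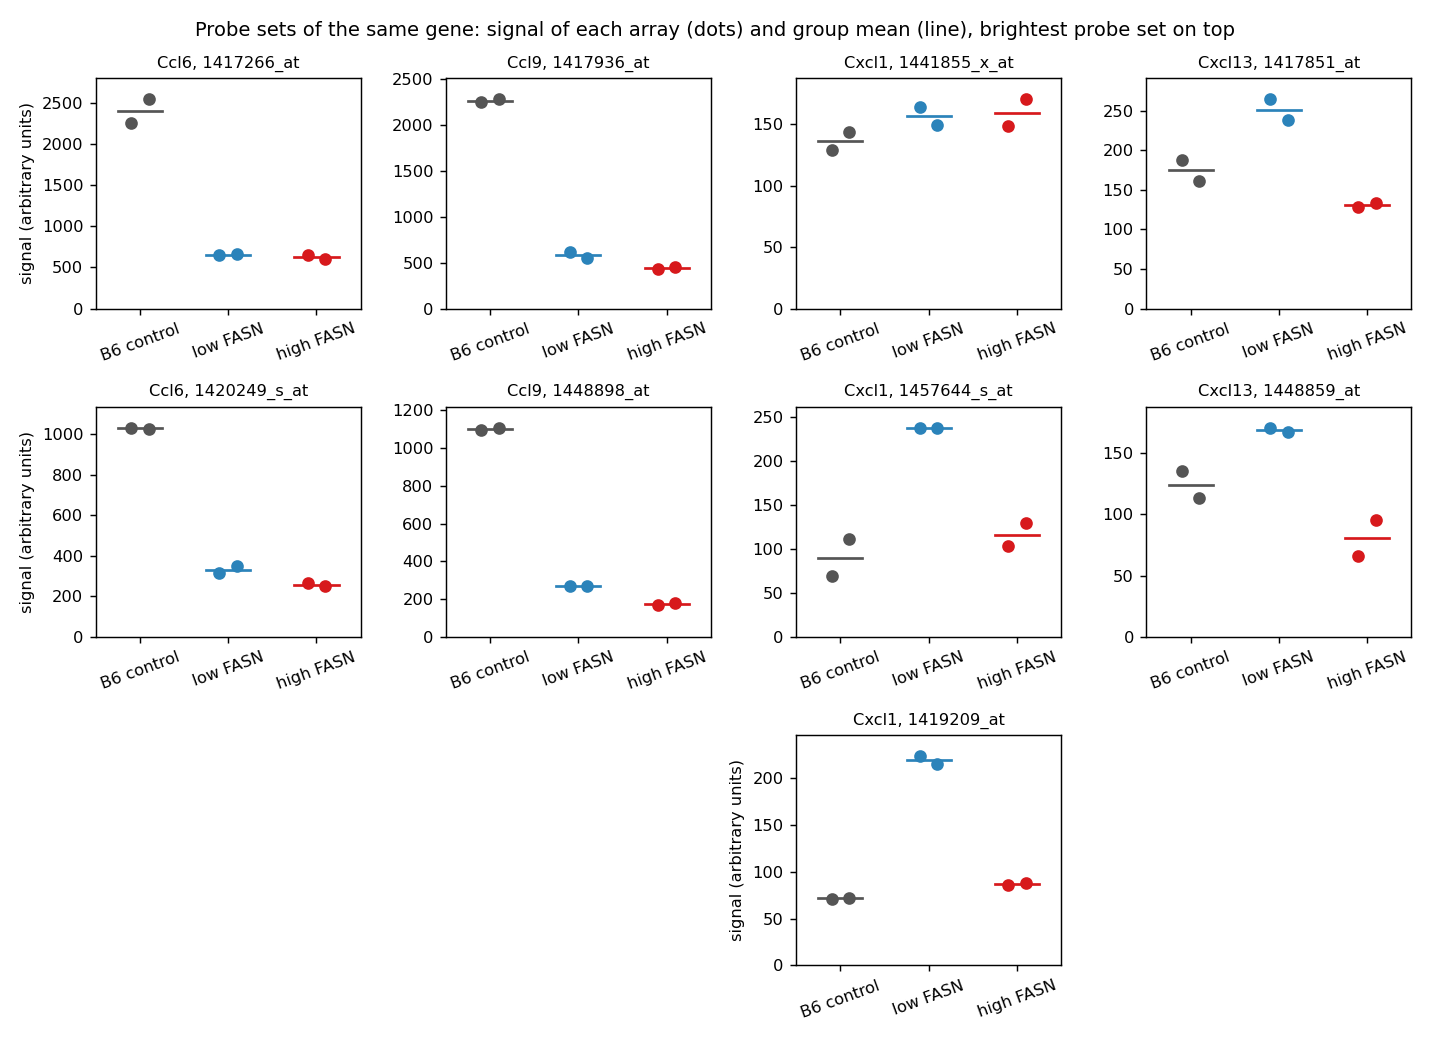
Signals in arbitrary units on each array (dots) with the group mean (line) are plotted for each probe set of Ccl6, Ccl9, Cxcl1 and Cxcl13, the brightest on top. The probe sets of Ccl6, Ccl9 and Cxcl13 keep the order of their group means, whereas the brightest Cxcl1 probe set lacks the high low-line signal of the other pair.

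Interferon-induced and mucosal CXC ligands were not called. Cxcl9, an attractant of activated T cells through Cxcr3, read 207 and 280 on high-line arrays, 199 and 256 on low-line arrays and 209.8 and 222 in control. Its groups overlapped, and its differences from control were 0.15 and 0.06 in the high and the low line. Cxcl10, which acts on the same receptor, read 51.8 and 51.5 on high-line arrays, 90.2 and 43.9 on low-line arrays and 76.7 and 27.3 in control. Its control arrays lay further apart than the groups' means. Cxcl16, a membrane-bound ligand of Cxcr6, read 134 and 191 on high-line arrays, 202 and 237 on low-line arrays and 217 and 178 in control (limma adjusted p = 0.379 and 0.632 against control). On this probe set both lines overlapped control. A second, dimmer probe set of Cxcl16 read 90.3 and 123 on high-line arrays, 114 and 134 on low-line arrays and 141 and 147 in control. There both lines lay below control without a call (-0.39 and -0.19, limma adjusted p = 0.212 and 0.515). Cxcl17, a ligand of mucosal epithelium, read 105 and 58.6 on high-line arrays, 76.2 and 64.5 on low-line arrays and 61.3 and 89.2 in control. Its groups overlapped, and Cxcl15, a ligand of lung epithelium, was dim (10.2 to 56.6). The summed signal of 11 airway and lung markers was 3296 to 3577 in the high line, 495 to 609.6 in the low line and 449 to 504 in control, and 4 of 8 tested genes rose in the high line, Scgb1a1 (1130.1 and 1165 against 6.2 and 2.47 in control) among them. Their part in the values of Cxcl17 and Cxcl15 was not tested.

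None of the 5 tested receptors was called in any of the 3 comparisons (limma, with 1 of them, Ccr1, at an unadjusted p below 0.05 in the high line and 0 in the other comparisons). Ccr1, the receptor shared by Ccl6 and Ccl9, read 94.1 and 105.5 on high-line arrays, 128 and 103 on low-line arrays and 136 and 143 in control. Both lines lay below control, and the differences of -0.43 ± 0.182 and -0.25 did not pass (adjusted p = 0.155 and 0.363). Ccr2, the monocyte receptor for Ccl2, read 133 and 65.2 on high-line arrays, 100.3 and 109.5 on low-line arrays and 79.4 and 80.1 in control, so the high-line arrays spanned the other 4. Its differences from control were 0.20 and 0.34 in the high and the low line. Another tested Ccr2 probe set had the opposite sign, with uncalled differences of -0.30 and -0.16 (limma adjusted p = 0.452 and 0.668). Ccr6, a receptor of lymphocytes and dendritic cells, read 27.2 and 75.3 on high-line arrays, 70.5 and 49.1 on low-line arrays and 61.1 and 57.6 in control. As on the brightest Ccr2 probe set, the high-line arrays of Ccr6 lay at both ends. Cxcr3, the receptor of Cxcl9 and Cxcl10, read 49.5 and 62.8 on high-line arrays, 81.4 and 58.1 on low-line arrays and 56.7 and 41.8 in control. Cxcr4, the receptor of Cxcl12, read 53.7 and 48.1 on high-line arrays, 81.8 and 52.2 on low-line arrays and 47.3 and 51.0 in control. In both Cxcr genes 1 low-line array was the highest of all 6. With 2 arrays a group and standard errors of 0.182 to 0.349 on the log2 scale, small differences of the receptors were not detectable.

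The dim genes were 8 Ccl ligands (Ccl1, Ccl3, Ccl5, Ccl17, Ccl20, Ccl22, Ccl25 and Ccl28), 5 Cxcl ligands (Cxcl2, Cxcl3, Cxcl5, Cxcl11 and Cxcl15), 6 Ccr receptors (Ccr3, Ccr4, Ccr7, Ccr8, Ccr9 and Ccr10) and 3 Cxcr receptors (Cxcr2, Cxcr5 and Cxcr6). Their signals ran from 1.1 to 70.4. The eotaxin receptor gene Ccr3 stayed between 2.17 and 5.22, the neutrophil receptor gene Cxcr2 between 2.47 and 11.4 and the Cxcl13 receptor gene Cxcr5 between 3.71 and 20.3. Only Ccr9, a receptor of thymocytes and gut-homing lymphocytes, had group means that differed by at least 1 on the log2 scale. It read 21.2 and 39.0 on low-line arrays against 4.27 and 1.74 in control and 12.1 and 21.7 on high-line arrays. The name of this probe set too ends in x_at, and the 4 other Ccr9 probe sets gave low-line differences of -0.56 to 0.30. Without the brightness limit the low-line difference of 1.25 on the x_at probe set had a limma adjusted p of 0.0488. Just below the limit lay Ccl25 and Ccl5 with mean log2 values of 5.83 and 5.87, and just above it Cxcl10 and Ccr6 with 6.13 and 6.15.

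Between the lines 3 genes were called. Ccl11 was 1.81-fold higher in the high line (0.85 ± 0.156 SE, limma adjusted p = 0.00567), Cxcl13 was lower there as given above, and Ccl9 was 1.29-fold lower (-0.37 ± 0.0805 SE, adjusted p = 0.0123; adjusted p = 0.107 without low-line array 1). The dimmer Ccl9 probe set gave -0.59 (adjusted p = 0.00357). Cxcl14 stood 1.89-fold higher in the high line without passing (0.92 ± 0.287 SE, adjusted p = 0.0532), and it passed when each array was centred on its median (adjusted p = 0.0466), without high-line array 1 (adjusted p = 0.0255) and without low-line array 2 (adjusted p = 0.0339). Ccl6 did not pass on its brightest probe set (-0.06, adjusted p = 0.646) and was called lower on the other (-0.34, adjusted p = 0.0366). The count of 3 was 1 without low-line array 1, 5 without high-line array 1 and 5 on the second probe sets. The 8 calls of the low line became 5 without low-line array 1, when Ccl24, Cxcl12 and Cxcl13 dropped out.

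Genes of the chemokine system outside the naming rule were read from a list of 22 symbols, of which 15 were on the arrays and 13 tested. In the high line 3 rose and 1 fell, in the low line 3 rose and 2 fell, and between the lines 2 were higher and 2 lower in the high line. That is 30.8%, 38.5% and 30.8% called, beside 14.4%, 24.3% and 18.6% of all tested probe sets. The medians of the listed genes against control were 0.043 (high line) and 0.134 (low line), beside 0.037 and 0.018 for all tested probe sets. Ackr3, the scavenger receptor that removes Cxcl12, read 4174 and 4242 on high-line arrays, 5110.2 and 5252 on low-line arrays and 3681 and 3755 in control. All 3 groups stood apart, with rises of 0.18 for the high line (limma adjusted p = 0.0418) and 0.48 for the low line (adjusted p = 0.000178). Rarres2, which encodes the attractant chemerin, rose by 0.87 and 0.59, and the skin chemokine gene Ccl27a by 0.58 and 0.76 in the high and the low line. The platelet chemokine gene Pf4, also expressed by macrophages, read 1114 and 1144 on high-line arrays against 1516 and 1649.5 in control and fell in the high line by 0.48 (adjusted p = 0.00153). Ppbp, another platelet chemokine gene, fell by 0.80 in the low line (adjusted p = 0.028). These counts are not stable: the 4 calls of the high line became 2 (1 higher, 1 lower) with median centring, with no brightness filter, with an untrended variance, with only the 4 arrays compared and without any 1 of the arrays other than high-line array 1. The 5 calls of the low line became 2 or 3 without any 1 of the low-line or control arrays, with 0 lower in each case.

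Of 27 tested signalling genes downstream of the receptors, 2 rose and 1 fell in either line, with medians of 0.037 and 0.013. That is 11.1% called, beside 14.4% (high line) and 24.3% (low line) of all tested probe sets. The low-line count of 3 was 1 without either low-line array and 5 without either high-line array. The G protein subunit genes Gng2 and Gnb2 rose in the high line by 0.97 and 0.44, and Gnai2 fell there by 0.25. Genes that induce chemokines or share their inflammatory control moved in both directions, 3 up and 5 down of 23 tested in the high line and 6 up and 4 down in the low line (medians 0.03 and 0.169). That is 34.8% and 43.5% called, beside 14.4% and 24.3% of all tested probe sets. On the second probe sets of these genes 17 were tested, and 2 rose and 2 fell in either line. The 8 calls of the high line became 5 (1 up, 4 down) without control array 1, 4 (1 up, 3 down) without control array 2 and 4 (0 up) with an untrended variance. The leukocyte adhesion genes Icam1 and Vcam1 fell by 0.82 and 0.55 for the high and by 0.72 and 0.52 for the low line. Cebpb, a transcription factor of myeloid and acute-phase genes, fell by 1.02 and 1.09. Tnfaip2, Nfkbia and Irf1 rose on high-line arrays by 0.478, 0.241 and 0.295 (limma adjusted p = 0.00381, 0.0158 and 0.0481). Irf1 was called higher for the low line too, with a difference of 0.597 (adjusted p = 0.00103). Tnfaip2 and Nfkbia were not called there. Nfkbiz, a nuclear regulator of NF-kappaB targets, read 131 and 134 on high-line arrays, 391 and 384 on low-line arrays and 213 and 225 in control. It thus rose in the low line (0.78, limma adjusted p = 0.00188) and fell in the high line (-0.66, adjusted p = 0.0074), the order of groups that Cxcl13 showed. The cytokine genes Tnf, Il6 and Ifng were dim.

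Levels of cell type markers stand beside these results, and their part in them was not tested. Of 14 macrophage and monocyte markers, beside Ccl6, Ccl8 and Ccl9, 13 were tested. Called were 46.2% of them in the high and 30.8% in the low line, beside 14.4% and 24.3% of all tested probe sets. In the high line 6 fell and none rose (median -0.279), and the count was 3 without control array 1, 2 without control array 2 and 2 with an untrended variance. In the low line 3 rose and 1 fell (median -0.144), and the count of 4 was 7 without either high-line array and 2 without low-line array 2. The summed signal was 13806 to 13974 in the high line, 17045 to 17613 in the low line and 15654 to 15763 in control. Sum and median thus differed in direction in the low line, where Lyz2, the lysozyme gene, read 5746 and 5912 against 4520.4 and 4203 in control. Cd163, a scavenger receptor gene of resident macrophages, fell by 0.56 and 0.79 in the high and the low line, and Mrc1 fell by 0.39 in the high line.

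Of 4 lymphatic endothelial markers, all tested, 1 rose and 1 fell in each line (medians 0.11 and 0.19). The gene that fell was Lyve1, which is also expressed by resident macrophages. It read 1083 and 1021 on high-line arrays, 1504.5 and 1450.1 on low-line arrays and 2574 and 2516 in control. The gene that rose was Prox1, a transcription factor of lymphatic endothelium (0.59 and 0.44, limma adjusted p = 0.00202 and 0.00518). On second probe sets, 3 of them tested, 0 markers rose and 1 fell in each line. Without low-line array 2 the low-line count of 2 was 1. Fibroblast markers, beside Ccl11, Cxcl12 and Cxcl14, rose in 6 of 10 cases for the high line, a count that was 3 without control array 2 and 2 with an untrended variance, and in 5 for the low line, where 1 fell. Their summed signal was 53988 to 54826 in the high line, 50682 to 51449 in the low line and 46778 to 48522 in control. Mural cell markers, genes of smooth muscle and pericytes, rose in 6 of 8 cases for the high line and in 5 for the low line, and none fell. On second probe sets the high-line calls became 3 of 7 mural and 3 of 8 fibroblast markers, all higher. The summed signal of the mural markers was 34807 to 36078 in the high line, 34447 to 34849 in the low line and 25696.5 to 26574 in control. Of 10 vascular endothelial markers 3 rose and 1 fell in the high line, and 4 rose and 2 fell in the low line.

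Adipocyte markers had the highest medians of these lists in both lines. Of 6 tested, 5 rose in each line (medians 2.01 and 1.54). That is 83.3% called in either line, beside 14.4% (high line) and 24.3% (low line) of all tested probe sets. Adipoq, which encodes adiponectin, read 3485 and 3181 on high-line arrays, 1678 and 1681 on low-line arrays and 138 and 97.5 in control, and Ucp1, the uncoupling protein gene of brown fat, read 846 and 799 on high-line arrays, 185 and 231.5 on low-line arrays and 6.23 and 10.2 in control. Of 9 B and plasma cell markers beside Cxcl13, 5 were tested and 3 rose in each line, with summed signals of 703 to 732 in the high line, 2563 to 2594.5 in the low line and 263 to 344 in control. The genes that rose were Ms4a1, Ighm and Jchain, while Cd22 and Mzb1 were called in neither line. The share called was 60.0% in either line, beside the same 14.4% and 24.3% of all. Most of the low-line sum was Ighm, which read 1711.5 and 1729 there, 333 and 310 on high-line arrays and 9.91 and 80.0 in control. Only 3 of 13 T and NK cell markers were bright enough to be tested. No marker of these lists was listed at 0.

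Facts of the arrays as a whole bear on all of this. The targeted gene followed the labels, with Fasn at 2268 and 2104 on high-line arrays, 462 and 481 on low-line arrays and 213 and 187 in control. The cardiac gene Myh6 read 27487 to 38169, and all 10 heart muscle markers were tested. Of these 6 were higher and 0 lower in the high line (median 0.24), 0 higher and 2 lower in the low line (median -0.134), and 7 higher in the high than the low line (median 0.384). The high-line count was 0 with median centring or without control array 2, and 1 with quantile normalization or without control array 1. The low-line split was 2 higher and 2 lower with quantile normalization, and 0 higher and 7 lower without either high-line array. Arrays of 1 group correlated at 0.987 to 0.99 over tested probe sets and arrays of different groups at 0.969 to 0.977. The number of arrays limits the precision.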

How the data were processed

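Hearts of 3 groups were measured on 6 one-colour Affymetrix arrays. The authors deposited 1 table of linear signal intensity per probe set, made with GCOS per the submitters' processing notes; version and summary method: not given in the sources used here. After trimming 2% at each end every column had a mean of 300.002, so the deposited scaling was kept. Of 45101 probe sets 64 controls were set aside; 34945 of the rest had 1 gene symbol, 932 several and 9160 were not listed, and those without a single symbol were tested but not named. No scanner files or detection calls were used.

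Values were analysed as log2(signal + 16), a scale that understates changes of dim genes. Probe sets with a mean at or above the median were tested (22519) with limma 3.58.1 in R 4.3.3, as 3 group means fitted to 6 arrays with a trended eBayes prior (residual degrees of freedom 3, prior 6.43). Calls are Benjamini-Hochberg adjusted p below 0.05, two-sided, over all tested probe sets. Fold changes are 2 to the log2 difference on that scale. The model was tested on simulated data. Members are named by the rule on their symbols; other genes come from marker and pathway lists, up to 4 of smallest p a list and comparison or defining markers. The members and lists were chosen with earlier results of these data known. Figures used matplotlib 3.10.9 under Python 3.11.15.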

Additional observations from a re-analysis of the deposited data

Results flagged for a closer look

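The effects of the 2 lines, each set against the same control arrays, differed by a test of the difference itself for 3 genes. For the high line minus the low line, Ccl9 differed by -0.37 on the log2 scale, Ccl11 by 0.85 and Cxcl13 by -0.86 (limma, adjusted p = 0.0123, 0.00567 and 0.00453). No group holds enough arrays for a check of single outlying arrays.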

How the results depend on the processing

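The alternatives were quantile normalization, median centring, cyclic loess, pseudocounts of 1 and 32, no brightness filter, brightness on 2 arrays, an untrended variance, only the 4 arrays compared, the replicate block, the second probe set of a gene, and each array left out. Of 17 called differences of members 11 held under every alternative run; over 283 values 259 kept their call, 24 lost it and 0 changed sign. The count for the high line stayed at 6 when any array was left out. For the low line it ranged from 5 to 8, and between the lines from 1 to 5. Between the lines the second probe sets gave 5 calls, since Cxcl1 turned from 0.02 to -0.94 and was called, as was Ccl6; the cause was not tested. Of 800 values for differences not called, 9 were called under an alternative, and 53 changed sign with no call on either side. Replicate numbers did not pair the arrays (deviations of same-numbered arrays correlated at 0.0 to 0.04). With the replicate block the counts were 6, 8 and 4, Cxcl14 between the lines being the added call (adjusted p = 0.0218), and no other call of a member changed. Of 816 list counts under alternatives 129 moved by over 1.5 times. The table gives no background, so how far a dim gene stands above it is unknown.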
